A study of Mus musculus with 4 samples.

Results

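The genes described are 6 interferon regulatory factors (Irf1, Irf2, Irf3, Irf5, Irf7 and Irf9) and 3 signal transducers and activators of transcription (Stat2, Stat3 and Stat6). Every probe set that the platform annotation assigns to them was taken, which gave 17 probe sets for the 9 genes, out of 22626 probe sets for 12384 named genes in all. They were measured in fibroblasts of mouse embryos, adherent mesenchymal cells in culture, in 2 genotypes with 2 arrays each, labelled Med1-/- p53-/- and Med1+/+ p53-/-. Both genotypes lacked p53, were of strain C57BL/6J, came from embryos of day 10.0 of 1 crossing of a Med1+/- p53-/- male with a Med1+/- p53+/- female, and were grown in medium with 10% fetal calf serum. Med1 is part of Mediator, the bridge between DNA-bound transcription factors and RNA polymerase II. The study's title concerns how stromal cells support blood stem and progenitor cells, and the comparison of the genotypes asks which transcripts differ where Med1 is missing. Whether the 2 arrays of a genotype stand for separate embryos or cultures is not in the labels, so the p-values reflect the spread between these arrays alone, which may be technical. Effects of Med1 and of anything else that differed between the source embryos cannot be told apart.

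Interferon regulatory factors share a DNA-binding domain that reads the interferon-stimulated response element (ISRE). STAT proteins are latent in the cytoplasm, are phosphorylated by Janus kinases at cytokine receptors and then enter the nucleus, where most STAT dimers bind the interferon gamma activated site (GAS). The complex ISGF3, which holds STAT2 and IRF9, forms after type I interferon and binds the ISRE; IRF3 and IRF7 switch on the interferon genes after nucleic acid sensing; IRF1 activates and IRF2 antagonises at many of the same elements. IRF5 acts downstream of Toll-like receptors and is best known from myeloid cells, STAT3 carries signals of the interleukin 6 family through gp130, and STAT6 those of interleukins 4 and 13.

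The promoters of the members differ in these elements. They were searched because several of these genes are themselves known targets of interferon. RefSeq promoters of assembly GRCm38.p6 were given for all 9 genes, 11 start sites in all. The 250 bases before each start were searched for the ISRE, as GAAA, any 2 bases and GAAA again on either strand, and for the GAS, as TTCNNNGAA, which reads the same on both strands. A match was found at 3 genes: an ISRE at Stat2 and Irf2 and a GAS at Irf1 and Irf2. The other 6 genes had neither run of letters in this window, which says nothing of whether the factors act there. Among all 32851 promoters of the same length, 2.98% held the ISRE and 7.02% the GAS. The matches, which did not overlap each other, are in capitals below, in the direction of the gene. They are shown for Irf1 and Irf2, for Stat2, the member with the largest fall among those tested, and for Irf3, whose rise was the largest on the brightest probe set of a member and which had no match.
Irf1, chr11:53769764-53770013, plus strand: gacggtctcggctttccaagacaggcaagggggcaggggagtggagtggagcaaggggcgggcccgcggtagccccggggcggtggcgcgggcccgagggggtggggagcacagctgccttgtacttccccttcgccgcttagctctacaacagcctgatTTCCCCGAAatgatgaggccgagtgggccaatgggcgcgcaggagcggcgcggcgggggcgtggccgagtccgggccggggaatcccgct
Irf2, chr8:46739495-46739744, plus strand: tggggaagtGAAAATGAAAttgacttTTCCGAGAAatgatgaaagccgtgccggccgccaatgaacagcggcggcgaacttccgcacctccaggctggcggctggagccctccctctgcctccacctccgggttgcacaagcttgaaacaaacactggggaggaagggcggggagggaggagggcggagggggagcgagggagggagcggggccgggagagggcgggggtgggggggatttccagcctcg
Stat2, chr10:128270248-128270497, plus strand: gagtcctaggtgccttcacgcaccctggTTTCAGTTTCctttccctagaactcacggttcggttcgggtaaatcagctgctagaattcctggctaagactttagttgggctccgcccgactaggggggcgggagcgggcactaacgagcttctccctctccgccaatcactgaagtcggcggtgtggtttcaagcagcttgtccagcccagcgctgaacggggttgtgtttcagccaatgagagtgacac
Irf3, chr7:44997398-44997647, plus strand: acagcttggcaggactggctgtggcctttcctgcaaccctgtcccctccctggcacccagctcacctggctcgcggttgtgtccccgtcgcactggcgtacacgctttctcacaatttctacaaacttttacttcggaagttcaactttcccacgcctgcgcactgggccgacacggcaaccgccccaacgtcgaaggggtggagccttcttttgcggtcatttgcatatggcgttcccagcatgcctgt
The GAS of Irf1 lay at positions -90 to -82 before the start. The ISRE of Stat2 lay at -222 to -213 and ran on the opposite strand, and Irf2 had an ISRE at -241 to -232 followed by a GAS at -224 to -216. These matches describe the letters only, since no binding was measured.

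The deposited linear intensities did not share a scale, with array medians of 36.1 and 51.4 in Med1-/- cells, against 76.3 and 106.7 in Med1+/+ cells. Arrays were therefore quantile normalized, and changes are differences of log2(signal + 1.7) relative to the rest of the array. Med1 itself was nearly lost, with a deposited signal of 25.4 and 40.2 in Med1-/- cells, against 664.6 and 885.6 in Med1+/+ cells on 1448708_at. Over the probe sets tested, arrays correlated at 0.982 within Med1-/- and 0.989 within Med1+/+ cells, and at 0.828 to 0.842 between genotypes. Of 12 fibroblast and mesenchyme markers tested 6 were higher and 2 lower in Med1-/- cells: Vim was bright on every array, between 12340 and 14451 as deposited, whereas relative to the rest of the array Col1a1 was 3.94-fold higher and Pdgfra and Prrx1 were 7.73-fold and 7.42-fold lower. Of 13 macrophage and blood markers 10 were too dim to be tested, and the list's summed normalized signal was 383 and 372 in Med1-/- cells, against 291 and 256 in Med1+/+ cells. The epithelial markers differed more, with 4 lower and 1 higher in Med1-/- cells of 5 tested among 8 on the array, and a summed normalized signal of 2319 and 2699 in Med1-/- cells, against 4706 and 4851 in Med1+/+ cells. Most of the Med1-/- sums was Krt19, the marker that rose, and without it they were 279 and 239 in Med1-/- cells, against 3965 and 4126 in Med1+/+ cells. No marker of these lists was listed at 0 on all arrays, and the part of these cells in the results below was not tested. In a bulk sample, fewer cells of a type and less RNA per cell cannot be told apart.

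The members split into a group that was lower and a group that was higher in Med1-/- cells. The ISGF3 genes Stat2 and Irf9 fell, and Irf3, Irf2 and Stat6 rose, all relative to the rest of the array; scaled on the Bacillus subtilis control probe sets instead, every member gene was lower on its brightest probe set, and Irf2, Irf3 and Stat6 turned round. Irf1 and Irf7 were lower by 0.30 and 0.85 on the log2 scale without passing the test, and Stat3 and Irf5 did not pass on their brightest probe sets. By probe set, 7 were higher, 2 were lower and 4 did not pass of the 13 bright enough to be tested. Among all 13576 probe sets tested 71.6% passed, 36.3% as higher and 35.3% as lower (limma, Benjamini-Hochberg adjusted p under 0.05). That split was 326 higher and 5972 lower in the unscaled deposited values, 1541 and 8281 with the hybridisation controls and 76 and 12301 with those of Bacillus subtilis, beside 4923 and 4795 after quantile normalization. By gene, read from the brightest probe set, 3 were higher, 2 lower and 4 did not pass, where 74.9% of 7873 genes passed, 39.6% as higher and 35.4% as lower. The number of calls among the members was thus of the size found across the array. The other 4 probe sets, 2 of Irf3 and 1 each of Stat2 and Stat3, were below the filter and were given no test. Of the 13, 12 had genotypes that did not overlap after normalization, 7 higher and 5 lower in Med1-/- cells, where 86.6% of all probe sets tested did not overlap, 44.0% higher and 42.6% lower. In the deposited values 2 of the 13 were higher without overlap and 6 lower, beside 11.0% and 60.3% of all probe sets tested.

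**Figure D1:**
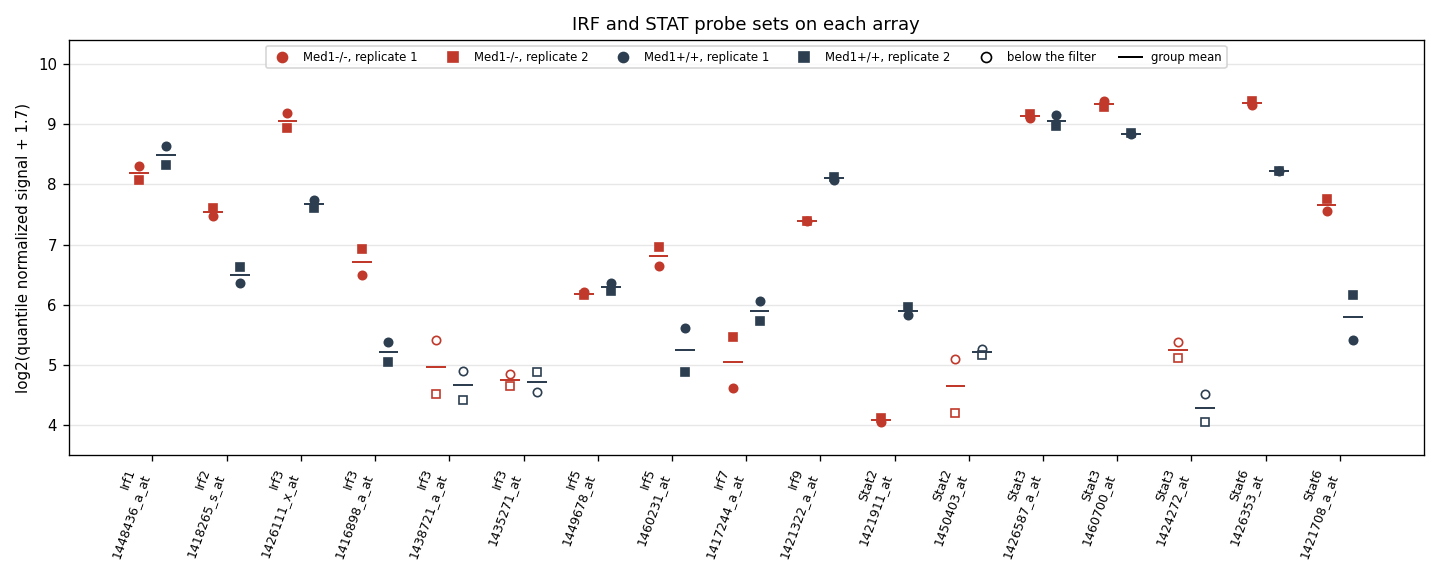
Log2(quantile normalized signal + 1.7) of the 17 IRF and STAT probe sets on each array, Med1-/- left (red) and Med1+/+ right (dark), circles for replicate 1, squares for replicate 2 and open symbols below the filter; lines are group means. Stat2 1421911_at and Irf9 lie lower in Med1-/- cells and Irf2, Irf3 1426111_x_at and Stat6 higher, although with the Bacillus subtilis scaling all 5 of these genes are lower.

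Stat2, the subunit that gives ISGF3 its transactivation domain, had the largest fall among the member probe sets tested. In the deposited values, 1421911_at read 8.9 and 12.7 in Med1-/- cells, against 62.4 and 96.4 in Med1+/+ cells. After normalization the signals were 14.8 and 15.7 in Med1-/- cells, against 55.4 and 60.9 in Med1+/+ cells. Both Med1-/- arrays were far below both Med1+/+ arrays on either scale. The log2 change of Stat2 was -1.82 (SE 0.30, 2 arrays per genotype, adjusted p = 0.0018, limma), a 3.53-fold lower level, and its size exceeded that of 92.9% of the probe sets tested. This probe set passed the filter through its Med1+/+ values, since its Med1-/- mean of 4.08 on the log2 scale was under the filter's limit of 4.98. A second Stat2 probe set, 1450403_at, was below the filter, with normalized signals of 32.5 and 16.7 in Med1-/- cells, against 36.7 and 34.3 in Med1+/+ cells. Its groups did not overlap, and it was lower by 0.57 on the log2 scale, a smaller difference than that of 1421911_at. Stat2 spans chr10:128270498-128292853 in GRCm38.p6 and overlaps Apof there.

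Irf9 (chr14:55603985-55610030), the DNA-binding subunit of ISGF3, was lower on its only probe set, 1421322_a_at. The deposited signal was 91.1 and 131.0 in Med1-/- cells, against 292.4 and 424.2 in Med1+/+ cells. Normalized signals were 166 and 166 in Med1-/- cells, against 268 and 279 in Med1+/+ cells. The replicates were close together and the groups well apart, and the log2 change of Irf9 was -0.71 (SE 0.12, 2 arrays per genotype, adjusted p = 0.0024, limma), a 1.64-fold lower level.

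Irf7 (chr7:141263183-141266499; 1417244_a_at), which amplifies the type I interferon response, was lower on both Med1-/- arrays, but the 2 arrays differed from each other. Its deposited signal was 13.4 and 32.7 in Med1-/- cells, against 72.8 and 81.3 in Med1+/+ cells. Normalized signals were 22.9 and 42.5 in Med1-/- cells, against 64.7 and 51.4 in Med1+/+ cells. The groups did not overlap, yet the log2 change of Irf7, -0.85 (SE 0.35, 2 arrays per genotype), did not pass (adjusted p = 0.067, limma). Without Med1-/- replicate 2, the brighter of the pair, it was -1.27 and passed (adjusted p = 0.0091, limma), where the lone Med1-/- array is assumed to vary like the Med1+/+ pair; without Med1-/- replicate 1 it was -0.43 and did not. Irf7 passed as lower with equal 75th percentiles in place of quantile normalization (adjusted p = 0.033, limma), in the unscaled deposited values (adjusted p = 0.0017, limma) and with either set of control probe sets.

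Irf1 (chr11:53770014-53778374; 1448436_a_at), an activator induced by interferon gamma, was lower on both Med1-/- arrays by a margin that did not pass the test. Its deposited signal was 180.4 and 218.1 in Med1-/- cells, against 426.8 and 483.7 in Med1+/+ cells. Normalized signals were 314 and 266 in Med1-/- cells, against 397 and 320 in Med1+/+ cells, with Med1-/- replicate 1 just under Med1+/+ replicate 2. The log2 change of Irf1, -0.30 (SE 0.16, 2 arrays per genotype), did not pass (adjusted p = 0.129, limma). Irf1 was called lower in the unscaled deposited values (adjusted p = 0.027, limma) and with either set of control probe sets.

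Irf2 (chr8:46739745-46847458), the antagonist of Irf1, was higher. Its probe set 1418265_s_at gave normalized signals of 176 and 193 in Med1-/- cells, against 80.9 and 96.9 in Med1+/+ cells. The groups did not overlap, and the log2 change of Irf2 was 1.04 (SE 0.17, 2 arrays per genotype, adjusted p = 0.0016, limma). As deposited the groups overlapped, at 96.4 and 153.1 in Med1-/- cells, against 91.1 and 152.8 in Med1+/+ cells, so the rise is one relative to the lower signal of the Med1-/- arrays as a whole. Probe sets ending in _s_at can also match transcripts of other genes.

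Irf3 (chr7:44997648-45002848), which is present in resting cells and activated by nucleic acid sensors, was higher on both probe sets bright enough to be tested. On 1426111_x_at the deposited signal was 343.7 and 414.4 in Med1-/- cells, against 235.4 and 300.7 in Med1+/+ cells. Here the Med1-/- arrays were brighter even before scaling, as for Irf5 1460231_at alone among the other members tested. Normalized signals were 580 and 490 in Med1-/- cells, against 213 and 194 in Med1+/+ cells, and the log2 change of Irf3 on this probe set was 1.38 (SE 0.14, 2 arrays per genotype, adjusted p = 0.00025, limma). On 1416898_a_at normalized signals were 89.0 and 120 in Med1-/- cells, against 39.95 and 31.4 in Med1+/+ cells. That is a 2.84-fold higher level (adjusted p = 0.0020, limma), beside 2.61-fold on the brighter probe set. The dim probe sets 1438721_a_at and 1435271_at, both below the filter, had overlapping groups and log2 differences of 0.31 and 0.03. Identifiers ending in _x_at mark probes that may cross-hybridise, and the second tested probe set, 1416898_a_at, does not carry that mark. As deposited, however, the groups of 1416898_a_at overlapped, at 48 and 93.5 in Med1-/- cells, against 44.6 and 48.4 in Med1+/+ cells.

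Irf5 gave a split answer. On its brighter probe set, 1449678_at, normalized signals were 72.1 and 69.8 in Med1-/- cells, against 80.4 and 73.0 in Med1+/+ cells, a log2 change of -0.11 (SE 0.19, 2 arrays per genotype) that did not pass (adjusted p = 0.619, limma). This probe set was called lower in the unscaled deposited values (adjusted p = 0.036, limma) and with either set of control probe sets. On 1460231_at normalized signals were 98.7 and 122 in Med1-/- cells, against 47.4 and 27.9 in Med1+/+ cells. There Irf5 rose by 1.55 on the log2 scale (SE 0.30; adjusted p = 0.0036, limma). The probe sets of Irf5 therefore disagree, and no direction can be given for the gene. The position of either probe set in the transcript was not analysed here. Irf5 spans chr6:29526130-29541869 in GRCm38.p6 and overlaps its neighbour Tnpo3 there.

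Stat6 (chr10:127642955-127660987), the transducer of interleukin 4 signals, was higher on both of its probe sets. On 1426353_at the deposited signal was 380.0 and 570.1 in Med1-/- cells, against 320.5 and 448.6 in Med1+/+ cells, overlapping between the genotypes. Normalized signals were 641 and 665 in Med1-/- cells, against 297 and 296 in Med1+/+ cells. Replicates then nearly coincided, and the log2 change of Stat6 was 1.14 (SE 0.11, 2 arrays per genotype, adjusted p = 0.00022, limma), a 2.20-fold higher level. On the dimmer 1421708_a_at the normalized signals were 187 and 214 in Med1-/- cells, against 41.2 and 69.8 in Med1+/+ cells, a log2 change of 1.87 (adjusted p = 0.00097, limma). Its deposited groups also overlapped, at 103.1 and 171.1 in Med1-/- cells, against 45.9 and 110.1 in Med1+/+ cells.

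Stat3 (chr11:100886806-100939594), the transducer of gp130 cytokines, had the smallest change among the brightest probe sets of the members. On 1426587_a_at normalized signals were 549 and 575 in Med1-/- cells, against 566 and 500 in Med1+/+ cells. The groups overlapped, and the log2 change of Stat3, 0.08 (SE 0.12, 2 arrays per genotype), did not pass (adjusted p = 0.560, limma). With equal array medians it was called higher (adjusted p = 0.043, limma), and with either set of control probe sets lower. On 1460700_at, nearly as bright, normalized signals were 666 and 626 in Med1-/- cells, against 454 and 462 in Med1+/+ cells. That probe set rose by 0.49 on the log2 scale (SE 0.11; adjusted p = 0.0062, limma), and its sign turned in the deposited values and under scaling on either set of control probe sets. Another, 1424272_at, was below the filter, with a log2 difference of 0.97 at normalized signals of 40.2 and 32.9 in Med1-/- cells, against 21.1 and 14.8 in Med1+/+ cells.

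**Figure D2:**
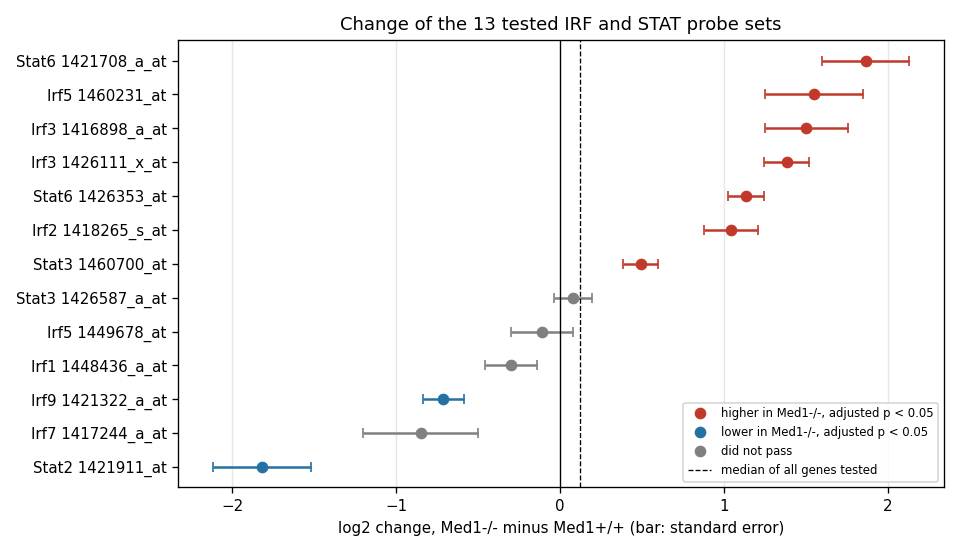
Log2 change with its standard error for the 13 tested IRF and STAT probe sets, Med1-/- minus Med1+/+, after quantile normalization; red passed as higher, blue as lower and grey did not pass, and the dashed line is the median of all genes tested, 0.12. The changes run from -1.82 for Stat2 to 1.87 for Stat6 1421708_a_at; those above 0 fall below 0 with the Bacillus subtilis scaling.

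The scaling of the arrays set where 0 lay, but hardly the order of the members. Quantile normalization put the median log2 change of all genes tested at 0.12, equal array medians at 0.31 and equal 75th percentiles at 0.12. It was -0.74 in the unscaled deposited values, -0.76 when the hybridisation control probe sets were made equal and -1.77 when those of Bacillus subtilis were. Measured from that median, Stat2 was at -1.86 or lower under each of the 6 scalings, Irf7 lay between -1.09 and -0.97, Irf9 between -0.93 and -0.83 and Irf1 between -0.45 and -0.42. Irf2 lay between 0.78 and 0.93, Stat6 1426353_at between 1.02 and 1.05 and Irf3 1426111_x_at between 1.24 and 1.26. These 7 genes kept their side of the median under each of the 6 scalings, whereas Stat3 1426587_a_at lay within -0.04 to 0.01 of it, on both sides. Apart from quantile normalization, each scaling divides a whole array by a factor or leaves it as it is, which moves all log2 changes nearly alike. The agreement of those scalings was therefore largely fixed in advance, and only quantile normalization could have differed. The same holds for the list medians given below.

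**Figure D3:**
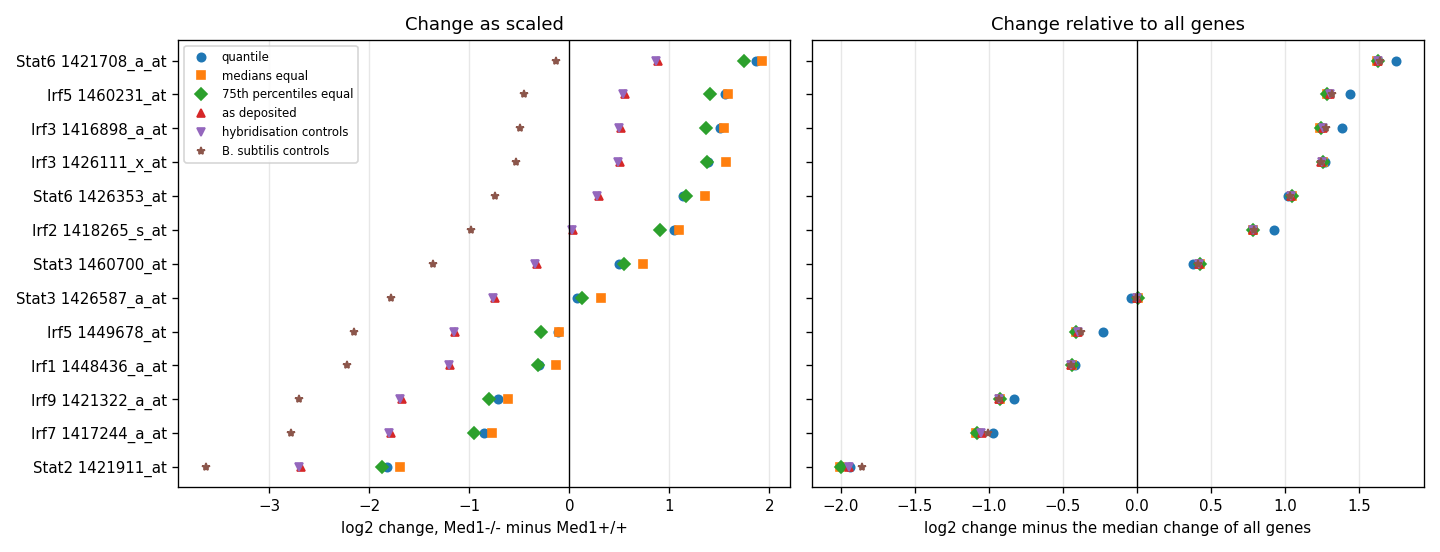
Log2 change, Med1-/- minus Med1+/+, of the 13 tested IRF and STAT probe sets under 6 scalings of the arrays (symbols), as scaled on the left and minus the median change of all genes on the right. On the left Irf2, Irf3, Stat6 and Irf5 1460231_at turn from higher to lower with the Bacillus subtilis controls and both Stat3 probe sets also as deposited and with the hybridisation controls. On the right the symbols of each probe set nearly coincide, which was largely fixed in advance for all scalings but the quantile one.

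Within an array the ratio of 2 members does not depend on a linear scaling, so the changes of such ratios were computed from the deposited signals of the brightest probe sets. Of the 36 pairs that the 9 members form, 33 had ratios that did not overlap between genotypes, where 85.2% of all pairs of the 7873 genes tested did not; pairs share members and are not independent, and with 2 arrays against 2 an exact permutation test cannot go below p = 0.333, so no pair was tested. The signal of Irf3 1426111_x_at relative to Stat2 1421911_at was 10.35-fold higher in Med1-/- cells, where this Stat2 probe set was dim, at 8.9 and 12.7 as deposited. Irf9 relative to Stat6 was 3.96-fold lower, with an SD of the log2 ratio of 0.04 in either genotype. Irf1 relative to its antagonist Irf2 was 2.36-fold lower, and Stat3 relative to Stat6 2.06-fold lower. On the brightest probe sets the 2 ISGF3 members changed unequally, Irf9 relative to Stat2 being 2.26-fold higher in Med1-/- cells. The second Stat2 probe set, 1450403_at, was below the filter and was not used in these ratios. Its log2 difference after normalization was -0.57, beside -0.71 for Irf9. Which of the 2 genes fell more therefore depends on the Stat2 probe set. The pairs whose ratios overlapped were Irf1 with Irf5, Irf3 with Stat6 and Irf7 with Irf9.

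Over the 4 arrays, the genes nearest to Irf3 1426111_x_at in log2 value, by Euclidean distance among 7872 other genes, were Tgif2 (distance 0.090), Ube3b (0.103) and Lemd2 (0.135). Those nearest to Stat2 1421911_at were Il6 (0.458), Map2k6 (0.497) and Cox7c (0.511). These distances compare signal levels as well as changes.

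In 8 lists of genes upstream and downstream of the factors, 30 of 78 genes tested were higher and 32 lower in Med1-/- cells (38.5% and 41%). Over all genes tested, which is what each list's count stands beside, 39.6% were higher and 35.4% lower. These directions, too, are relative to the rest of the array, since with the Bacillus subtilis controls 0 of them were called higher and 70 lower. Upstream of the factors, the Janus kinase genes Jak1 and Jak2 fell, and Tyk2 rose with an adjusted p-value close to the threshold. Of 8 genes for interferon receptor chains and Janus kinases tested, 3 rose and 2 fell, a list median of 0.15 against 0.12 for all genes tested. Jak2, which serves the interferon gamma receptor, fell by 1.43 on the log2 scale (adjusted p = 0.00018, limma), and Jak1, shared by both interferon receptors, fell by 0.96 (adjusted p = 0.00042, limma). Tyk2, the kinase of the type I interferon receptor, rose by 0.55, and the receptor chain genes Ifngr2 and Ifnar2 rose by 1.17 and 0.49 (adjusted p = 0.0041 for Ifngr2, 0.016 for Ifnar2 and 0.046 for Tyk2, limma). In the deposited values Tyk2 was lower without overlap, at 88.5 and 91.8 in Med1-/- cells, against 99 and 156.7 in Med1+/+ cells. Ifnar2 was also lower there without overlap, and the groups of Ifngr2 overlapped. The list's median was -0.14 with no filter or with the filter at the 20th percentile, -0.22 with it at the 60th, 0.06 without Med1+/+ replicate 2, 0.08 without Med1-/- replicate 1 and -1.86 with the Bacillus subtilis controls.

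Most of the receptor chains that feed Stat3 and Stat6 were lower among those tested. Of 5 tested among the gp130 and interleukin 4 receptor chains 4 fell and 0 rose, against 35.4% lower among all genes, and the list's median of -1.55 lay 1.58 to 1.84 below that of all genes under the 6 scalings. Those that fell were Lifr, the leukaemia inhibitory factor receptor (log2 change -2.31), Osmr, the oncostatin M receptor (-1.93), Il13ra1, which pairs with the interleukin 4 receptor (-1.55), and Il6st, which encodes gp130 (-1.20), with adjusted p-values of 7.3e-05 to 0.00040 (limma). Il6ra had a log2 change of 0.11 that did not pass (adjusted p = 0.693, limma). Il4ra was below the filter, and its normalized groups overlapped. Normalized Osmr signal was 300.0 and 312 in Med1-/- cells, against 1158 and 1178 in Med1+/+ cells. Of the Stat3 probe sets, 1426587_a_at differed by 0.08 on the log2 scale, 1460700_at was higher by 0.49 and 1424272_at, below the filter, by 0.97.

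Among the genes of nucleic acid sensing upstream of IRF3 and IRF7, 4 fell and 3 rose of 9 tested, with a median of -0.34. That median was -0.07 without Med1-/- replicate 1, -0.61 without Med1-/- replicate 2 and -0.98 with no filter or with the filter at the 20th percentile. The RNA sensor gene Ifih1 (log2 change -2.18), the IRF3 kinase gene Tbk1 (-1.60) and its adaptor gene Tank (-1.17) fell most among those tested, and Traf6 fell by 0.80. Irak1 (1.16), Mavs (1.01), the mitochondrial adaptor of RNA sensing, and Myd88 (0.34) rose, with adjusted p-values of 0.016, 0.024 and 0.045 (limma). Both Irak1 and Mavs were read from _x_at probe sets, which may cross-hybridise, and overlapped between genotypes as deposited. Deposited Myd88 signals were lower, at 195.9 and 254.2 in Med1-/- cells, against 282.7 and 380.9 in Med1+/+ cells. For Tbk1 the normalized signal was 273 and 245 in Med1-/- cells, against 785 and 789 in Med1+/+ cells, so it was lower where Irf3, its substrate's gene, was higher. Dhx58, Ikbke and Tlr3 were below the filter and were given no test. Each was lower in Med1-/- cells without overlap, by 3.93, 2.92 and 1.96 on the log2 scale. Deposited Dhx58 signals were 2.2 and 0.7 in Med1-/- cells, against 53.4 and 93.8 in Med1+/+ cells. The median of -0.98 above takes these genes in.

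Inhibitors of JAK-STAT signalling moved both ways, with 8 higher and 7 lower of 17 tested and a median of 0.43. Among the 8, Socs7 passed the filter through its Med1-/- values alone, and the median was 0.17 without Med1-/- replicate 2 and -0.46 with the filter at the 60th percentile. Trim28 (log2 change 1.84) and Pias4 (1.54) rose most, and Usp18, the brake on the type I interferon receptor (-2.62), and Socs5 (-1.83) fell most (adjusted p-values of 7.3e-05 to 0.00059, limma). Among other IRF and STAT genes Irf2bp1, a corepressor partner of IRF2, rose by 1.80 and Stat5b by 0.81, Stat5a did not pass (0.58; adjusted p = 0.053, limma), and Irf4, Irf8 and Stat4, genes best known from blood cells, were below the filter.

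Downstream, genes listed as ISGF3 targets were mostly lower. Of 18 tested 13 fell and 2 rose, against 35.4% lower and 39.6% higher among all genes, with a median of -2.09, which lay 2.19 to 2.24 below that of all genes under the 6 scalings. With the filter at the 60th percentile, which leaves fewer genes, the median was -1.30. Ifit1, an antiviral RNA-binding protein gene, had normalized signals of 153 and 134 in Med1-/- cells, against 1128 and 967 in Med1+/+ cells, a 7.23-fold lower level (adjusted p = 7.3e-05, limma). Rsad2, Rtp4 and Usp18 fell by 3.26, 3.04 and 2.62. The 2 that rose were Oasl1 (log2 change 1.84) and Oas1a (0.57), of the oligoadenylate synthetase family. Another 6 of the list were below the filter, and 2 of the 18, Cmpk2 and Parp14, passed it through their Med1+/+ values alone. That these genes are lower in the same arrays was known before the members were chosen and is not separate support.

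Genes listed as STAT3 targets had 13 higher and 4 lower of 20 tested, against 39.6% higher and 35.4% lower among all genes, and a median of 0.63 that lay 0.52 to 0.78 above that of all genes under the 6 scalings but was itself -1.05 with the Bacillus subtilis controls. The kinase genes Pim1 (log2 change 2.19) and Pim3 (1.80) rose, and Osmr and Hif1a, the hypoxia factor gene, fell by 1.93 and 1.71 (adjusted p-values of 7.3e-05 to 8.6e-05, limma). Pim3 was read from an _x_at probe set, which may cross-hybridise. As deposited, Pim1 and Pim3 were higher without overlap, whereas some others of the 13 overlapped between genotypes. The other 2 that fell were Ccnd1, the cyclin D1 gene, and Icam1, an adhesion molecule gene, by 0.81 and 0.49 (adjusted p = 0.00051 and 0.026, limma). Many of these genes respond to other signals too. Another 4 of the STAT3 list, Hp, Lcn2, Fgb and Il4ra, were below the filter and were given no test. Hp had a log2 difference of -4.73 without overlap. Its deposited signals were 1.7 and 1.2 in Med1-/- cells, against 132 and 119.3 in Med1+/+ cells. Lcn2 was higher by 1.13 without overlap, and the normalized groups of Fgb and Il4ra overlapped. With no filter the list's median was 0.59. Of 15 genes listed as STAT6 targets only 3 were tested: Cish rose by 0.73, Socs2 fell by 0.65 and Pparg had a log2 change of -0.89 that did not pass (adjusted p = 0.013, 0.026 and 0.062, limma). Pparg reached the filter through its Med1+/+ values alone. The lists share members, Usp18 and Osmr among them, and are described by their counts alone.

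**Figure D4:**
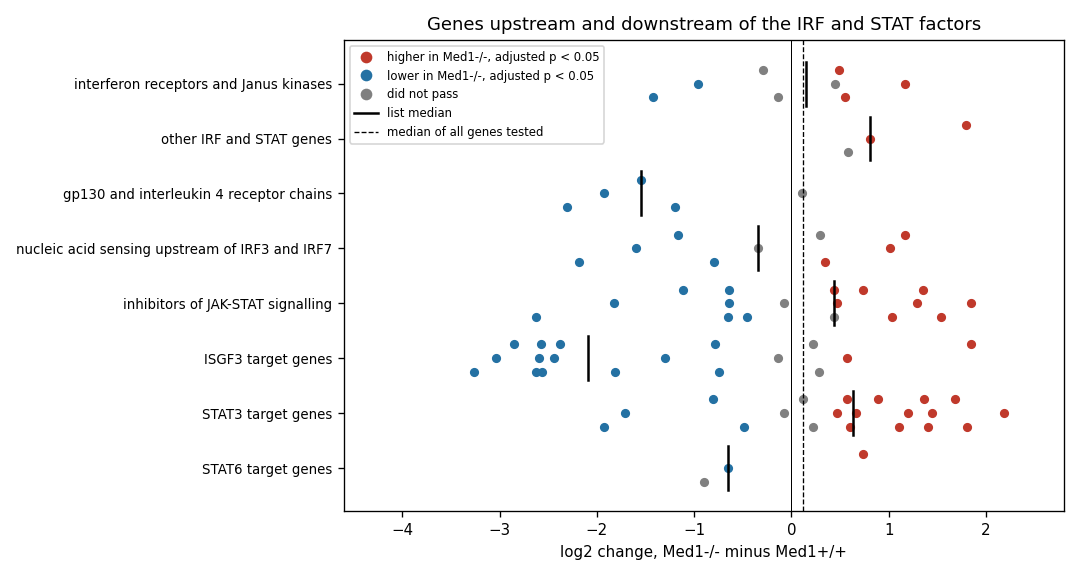
Log2 change, Med1-/- minus Med1+/+, of each tested gene (points, brightest probe set) in 8 lists of genes upstream and downstream of the IRF and STAT factors, with the list median (bar) and the median of all genes tested (dashed line, 0.12). ISGF3 targets and the gp130 and interleukin 4 receptor chains lie mostly to the left, with medians of -2.09 and -1.55, and STAT3 targets to the right, with 0.63, which is -1.05 with the Bacillus subtilis scaling.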

How the data were processed

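Total RNA of 4 mouse embryonic fibroblast samples, 2 per genotype, was amplified by in vitro transcription with biotin and hybridised to Affymetrix arrays, per the labels' protocols. The deposited values were linear signal intensities by probe set. The probe summary, background correction and scaling that the authors used are not given in the sources used here. Without the 64 control probe sets, 22626 were quantile normalized and taken as log2(intensity + 1.7), with the 10th percentile of all deposited values as pseudocount. Changes of dim probe sets are understated by this. The filter removed the 9050 probe sets whose mean lay below the 40th percentile. The genotypes were compared two-sided with limma 3.58.1 (R 4.3.3), by lmFit and an eBayes step with a trend, at 2 residual and 4.37 prior degrees of freedom, with Benjamini-Hochberg adjustment over all 13576 remaining probe sets and a threshold of 0.05. Every probe set was kept, since the members were defined by probe set; genes were read from their brightest.

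Names are those of the platform annotation, brought up to date with the RefSeq table of assembly GRCm38.p6: 1 symbol was found for 20380 probe sets, several for 691 and none for 1555, of which the last 2 kinds stayed unnamed. Of 178 list entries 158 had a probe set; the rest were not analysed here, and 1 planned list is not reported here. Promoter sequences are RefSeq's. The members and the lists were chosen with earlier results of these data known. Named were all members, up to 4 called genes with the largest change per list plus those a count of 5 or fewer refers to, and the 3 genes nearest to the members with the largest rise and fall. Stat5a, Pparg, Ikbke, Dhx58, Tlr3, Socs7, Irf4, Irf8, Stat4, Hp, Lcn2, Fgb, Il4ra and Il6ra were added after their values were seen. The fit was tested on simulated data. Alternatives varied the filter, scaling, pseudocount, probe set choice, variance model, a replicate block and the arrays left out. Plots used Python 3.11.15 and matplotlib 3.10.9.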

Additional observations from a re-analysis of the deposited data

How the results depend on the processing

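With 4 arrays the precision is limited by their number, and the deposited table gives no background level for dim probe sets. Leaving out each array in turn, with the lone array of a genotype assumed to vary like the other pair, left 51 of 52 values of the tested member probe sets on the same side of the threshold, and the other 8 alternatives that do not rescale the arrays left 91 of 93; the exceptions were Irf7, called without Med1-/- replicate 2 (-1.27), and Irf1 (-0.30) and Irf7 (-0.85), both called with the replicate block (adjusted p = 0.023 and 0.024, limma). Replicate numbers pair the samples only by name (the deviations of same-numbered arrays correlated at 0.297 over 2 pairs), and the block gave 4 lower member probe sets and 4 lower member genes. The filter at the 60th percentile, which leaves fewer probe sets to test, left 3 member probe sets higher, 1 lower and 1 member gene lower. With 1 probe set per gene, 3 member probe sets were higher.

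Scaling moved most counts, through the shift of all genes given in the report. As deposited, 0 member probe sets were higher and 5 lower, 0 member genes were higher and 5 lower, 4 list genes were higher (30 in the quantile normalized values) and 326 probe sets of the array were higher (4923). With the hybridisation controls, 2 member probe sets were higher and 7 lower, 1 member gene higher and 6 lower, 12 list genes higher and 50 lower (32), and 1541 probe sets higher and 8281 lower (4795). With the Bacillus subtilis controls, 0 member probe sets were higher and 10 lower, 0 member genes higher and 9 lower, 0 list genes higher and 70 lower, and 76 probe sets higher and 12301 lower. Those turned with the Bacillus subtilis controls were Irf2 (-0.98), Irf3 1426111_x_at (-0.53) and 1416898_a_at (-0.50), Irf5 1460231_at (-0.45), Stat3 1426587_a_at (-1.78) and 1460700_at (-1.36), and Stat6 1426353_at (-0.74) and 1421708_a_at (-0.14). With the hybridisation controls they were Stat3 1426587_a_at (-0.76) and 1460700_at (-0.34), and as deposited Stat3 1460700_at (-0.33) and, not called in either, Stat3 1426587_a_at (-0.75). Short of turning, Irf2 (0.04), Irf3 on both probe sets (0.50 and 0.51), Irf5 1460231_at (0.56) and Stat6 on both (0.29 and 0.88) lost their calls in the values as deposited. Irf1, Irf5 1449678_at and Irf7 gained a call as lower there and with both sets of controls, Irf7 with equal 75th percentiles and Stat3 1426587_a_at, as higher, with equal medians. Which scaling is right was not tested.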
